A study of Drosophila melanogaster with 3 samples.

Results

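Wide ORC2 binding intervals were examined on the 3 autosomal arms 2L, 3L and 3R of Drosophila melanogaster. They were chosen by the measured width of the series peak list, at least 400 bp, and had their midpoint away from the centromere side, at most 21000000 on 2L, at most 22500000 on 3L and at least 2050000 on 3R (FlyBase release 5). This rule gave 338 wide intervals of 2634 series intervals within the same limits, or 12.8%, and of 4477 in the whole list. The other 2296 intervals within the limits are called narrower. Width and position chose the wide intervals, so neither is a finding.

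ORC2 was mapped by chromatin immunoprecipitation and sequencing in asynchronous cultures of ML-DmBG3-c2 (BG3), a cell line from the larval central nervous system with the genotype y v f mal and a sex given as unknown. There were 2 ChIP libraries, made with a crude rabbit polyclonal antiserum to the full-length protein, and 1 input DNA library, whose values were not used here. The libraries carry separate extraction numbers, but separate cultures are not stated, and their differences may thus be technical. BG3 is a single established line with no treated or untreated groups here, so the comparison is between intervals of different width in 1 kind of cell.

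ORC2 belongs to the origin recognition complex (ORC), which binds chromatin at replication origins and loads the MCM helicase there during G1. The helicase stays inactive until S phase, when some of the loaded sites fire. In Drosophila the complex has no strict DNA motif and is known to favour open chromatin, including the starts of active genes, and several loading sites close together can form an initiation zone. Gene annotation and genome sequence of release 5 were not used here, so no interval is tied to a gene or a sequence.

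The series intervals are the joint extent of overlapping peaks of both replicates, and the wide ones were not equally wide in both. In replicate 1, 303 of the 338 held a single peak of at least 400 bp, or 89.6% (95% exact Clopper-Pearson interval 85.9 to 92.7). In replicate 2 the number was 134, or 39.6% (34.4 to 45.1). Both replicates had such a peak in 114 intervals (33.7%), replicate 1 alone in 189 (55.9%) and replicate 2 alone in 20 (5.92%). The remaining 15 (4.44%) were wide as a joint extent only, since their widest peak measured at most 399 bp in replicate 1 and at most 397 bp in replicate 2. The label of a wide peak thus held in at least 1 library for all but these 15. Intervals on shares cover counting error only and treat neighbouring peaks as independent, which they may not be.

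The widest peak at these sites had a median length of 504 bp in replicate 1, with quartiles of 431 and 603 bp. In replicate 2 the median was 344 bp, with quartiles of 188 and 467 bp. Replicate 1 had the wider peak at 292 of 338 sites (86.4%), against 1703 of 2296 narrower intervals (74.2%). The rule chose on width, which most of these sites reached through replicate 1, so this difference is partly built in. At 11 wide sites the replicate 2 peak was at most 50 bp long, down to 1 bp, whereas no replicate 1 peak there was that short. The ranks of the widths matched less between replicates among wide sites (Spearman's rho 0.243 across 338 sites) than among narrower ones (0.580 across 2296), a description over a restricted range of widths. A median of 58.4% of a wide interval lay under a peak in both replicates (quartiles 36.5 and 84.8%), against 63.1% of a narrower one. Joining the replicates added no length at 215 sites (63.6%), where the joint extent equalled the widest single peak. At the other sites it added up to 335 bp.

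**Figure D1:**
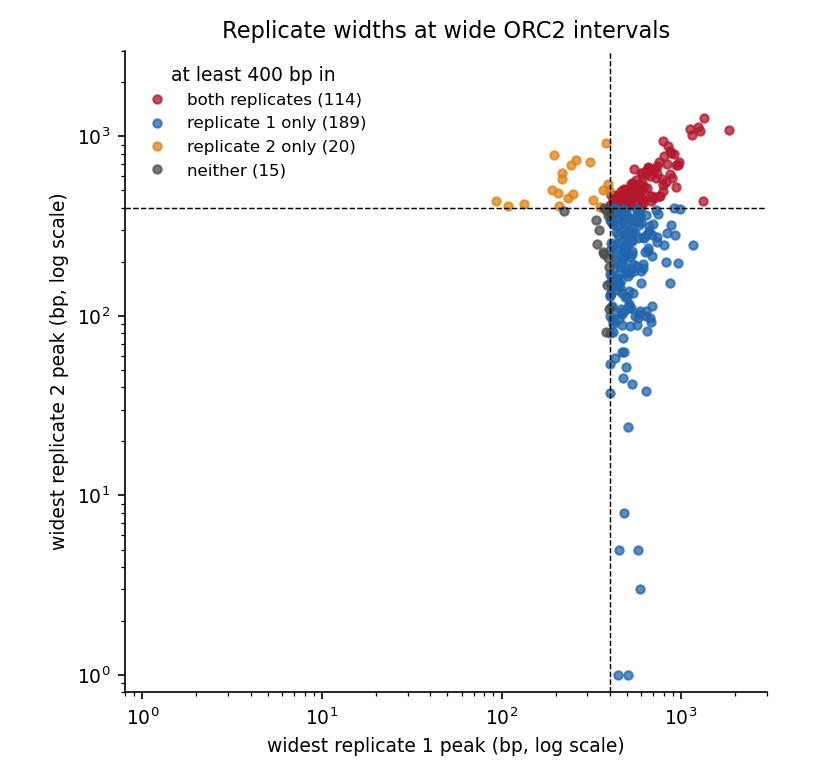
Width of the widest replicate 1 peak (x axis, bp, log scale) against that of the widest replicate 2 peak (y axis, bp, log scale) at each of the 338 wide intervals, coloured by which replicate reached 400 bp (dashed lines). Most points, 189, lie right of the vertical line and below the horizontal one, and 114 lie beyond both.

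Where replicate 1 alone was wide and replicate 2 had 1 peak, at 143 sites, the replicate 2 peak lay wholly inside the replicate 1 peak at 116 (81.1%). Over the 279 wide intervals with 1 peak in each replicate, replicate 1 started a median of 32 bp before replicate 2 and ended a median of 30 bp after it. The midpoints of the replicates lay a median of 47.5 bp apart at wide sites and 16.5 bp apart at narrower ones. A longer interval leaves more room for such an offset, so this difference is partly built in.

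To read width in a library that had not chosen the peaks, wide peaks were taken from 1 replicate list and looked up in the other. Replicate 1 had 321 peaks of at least 400 bp within the limits, 6.66% of 4817. Replicate 2 had 136, 4.05% of 3359. The mean percentage was 5.36 ± 1.85 (SD, n = 2). Of the 321 wide replicate 1 peaks, 303 overlapped a replicate 2 peak, or 94.4% (91.3 to 96.6), where 54.9% of all replicate 1 peaks within the limits did so and 52.1% of those under 400 bp. Of the 136 wide replicate 2 peaks, 134 overlapped a replicate 1 peak, or 98.5% (94.8 to 99.8), where 80.3% of all replicate 2 peaks did so and 79.5% of those under 400 bp. Wide peaks of either library were therefore found again in the other more often than the rest of the list was. Peaks just under the limit, of 300 to 399 bp, were found again almost as often, 300 of 333 (90.1%) from replicate 1 and 139 of 139 from replicate 2. A longer peak offers more bases to an overlap, and how much of these shares that accounts for was not tested.

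Being found again did not mean being as wide. Of the 321 wide replicate 1 peaks, 114 (35.5%, 30.3 to 41.0) met a replicate 2 peak of at least 400 bp, against 29 of 4496 narrower replicate 1 peaks (0.645%). Starting from replicate 2, 114 of 136 (83.8%, 76.5 to 89.6) met a replicate 1 peak of that width, against 241 of 3223 (7.48%). The median width found in the other library was 334 bp for wide replicate 1 peaks and 115 bp for narrower ones, and 549 bp against 166 bp for replicate 2. Peaks that were wide in 1 library therefore had the longer calls in the other as well, in both directions. With an overlap of 50% of both peaks required, 54.2% of wide replicate 1 peaks and 86.03% of wide replicate 2 peaks were found again. The corresponding values under 400 bp were 34.7% and 50.2%.

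A part of the wide intervals were a single block in replicate 1 and several pieces in replicate 2. More than 1 peak of a replicate lay in 59 of the 338 (17.5%, 13.6 to 21.9), against 10 of 2296 narrower intervals (0.436%) and 2.62% of all 2634. Peaks of 1 list are never closer than 200 bp, so an interval must exceed that length to hold a pair, and the difference from narrower intervals is partly built in. It stood at 7.59% for intervals of 400 to 499 bp, 14.6% for 500 to 599 bp, 30.4% for 600 to 799 bp and 40.0% (23.9 to 57.9, n = 35) for 800 bp or more. The breaks were on the replicate 2 side: that library was split at 51 wide sites (15.1%) and replicate 1 at 9 (2.66%), with 1 site split in both. The pieces were separated by short gaps, with a median of 239 bp over 53 gaps in replicate 2 (201 to 572 bp) and 220 bp over 9 gaps in replicate 1 (201 to 314 bp).

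The widest intervals show both patterns. On 2L at 12010830 to 12012670 (1841 bp), replicate 1 had 1 peak over the whole length (score 3.13). Replicate 2 had peaks of 220 and 1088 bp there (scores 3.64 and 2.48). On 3R at 21867357 to 21868676 (1320 bp), 1 replicate 1 peak of 1320 bp (score 4.14) stood over 3 replicate 2 peaks of 438, 106 and 164 bp (scores 3.46, 3.60 and 4.95). On 2L at 7187981 to 7188970 (990 bp), a replicate 1 peak of 957 bp met replicate 2 peaks of 92, 15 and 196 bp. In these 3 intervals replicate 1 reported 1 long call where replicate 2 reported separate ones. The pattern was the same on 2L at 12003035 to 12004202 (1168 bp), where 1168 bp in replicate 1 met 106 and 247 bp in replicate 2. It was also seen on 2L at 19575237 to 19576221 (985 bp), where 985 bp met 393 and 276 bp.

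Others were long and unbroken in both libraries. On 3L at 2823246 to 2824586, the peak measured 1341 bp in replicate 1 and 1274 bp in replicate 2, with scores of 4.28 and 2.90. On 2L at 2202487 to 2203612 the widths were 1126 and 1106 bp and the scores 6.18 and 4.87, the highest series score among the 12 widest. On 2L at 2752215 to 2753483 the widths were 1269 and 1073 bp. In each of these 3 the replicate 2 peak lay inside the replicate 1 peak. On 3R at 23070412 to 23071565 the widths were 1154 and 1012 bp, and on 3R at 17774330 to 17775313 they were 973 and 719 bp. On 3L at 5132178 to 5133427 they were 1250 and 1131 bp, but the scores were only 1.35 and 1.47. The reverse split, broken in replicate 1, was seen on 3L at 2552583 to 2553625, where replicate 1 had peaks of 254 and 384 bp and replicate 2 had 1 of 921 bp. A split in both libraries occurred on 2L at 18839045 to 18839811 (767 bp), where replicate 1 had peaks of 432 and 115 bp, and replicate 2 of 131 and 411 bp.

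**Figure D2:**
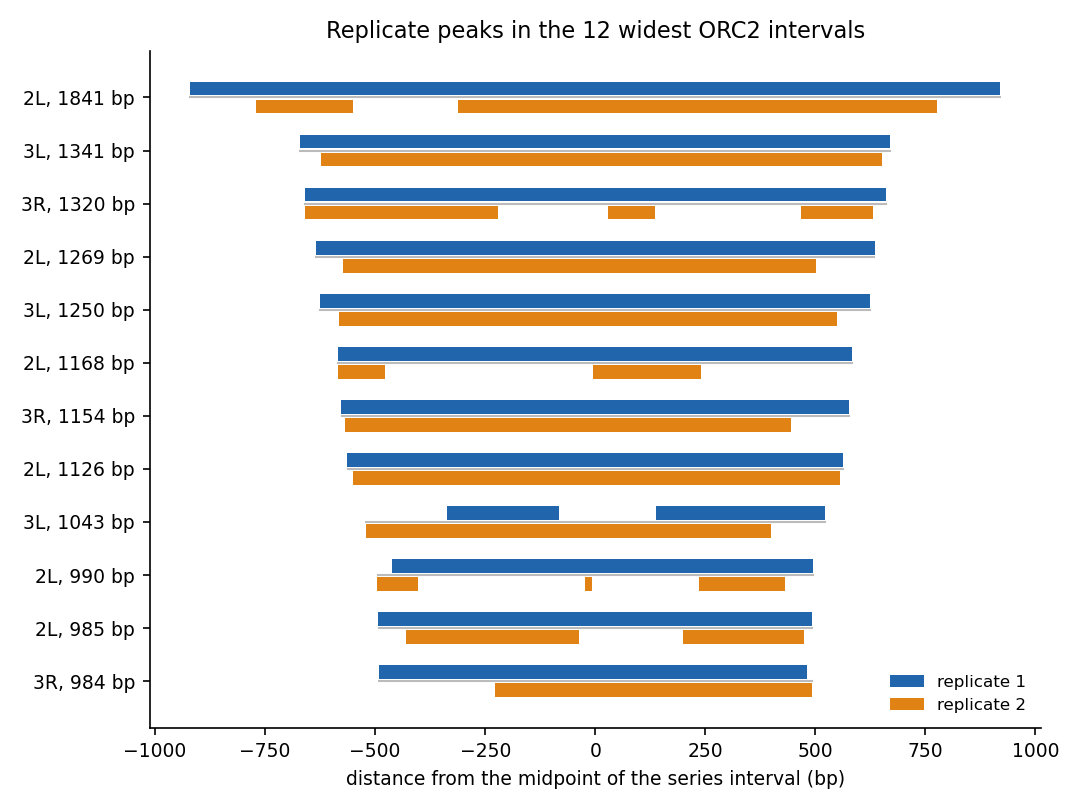
Extent of each replicate 1 peak (blue) and replicate 2 peak (orange) in the 12 widest intervals, drawn to scale as distance in bp from the midpoint of the series interval (grey line); rows are ordered by width and named by arm. Replicate 1 is 1 block in 11 of the 12, and replicate 2 is broken in 5.

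Wide intervals lay in ORC2-rich surroundings. A median of 1902 bp separated the edge of a wide interval from the nearest other series peak (quartiles 535 and 7968 bp), against 3518 bp for a narrower one (676 and 10519 bp). A series peak lay within 1 kb of 132 wide intervals (39.1%, 33.8 to 44.5) and of 697 narrower ones (30.4%, 28.5 to 32.3), with 31.5% over all 2634. Within 5 kb the values were 66.9% (61.6 to 71.9) and 58.4% (56.4 to 60.4), with 59.5% over all, and within 10 kb they were 79.3% and 73.7%, with 74.4% over all. Without 3L, an alternative chosen after the data were seen, the values within 5 kb came closer, at 61.8% and 58.4%, and those within 1 kb were 41.04% and 30.7%. Peaks on both sides within 5 kb flanked 88 wide intervals (26.04%, 21.4 to 31.1) and 335 narrower ones (14.6%, 13.2 to 16.1). At the other end, 2 wide intervals (0.592%) and 72 narrower ones (3.14%) had no series peak within 50 kb.

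The difference at 1 kb depends on where distance is measured. From midpoint to midpoint, a peak lay within 1 kb of 26.9% of wide and 26.8% of narrower intervals, because a wide interval itself takes up part of that distance. At 2 kb the midpoint values were 46.2% (40.7 to 51.6) and 38.1% (36.1 to 40.1), and at 5 kb 65.4% and 57.4%. No test was applied to these differences: width, neighbours, pieces and scores come from the same calls, and there are only 2 libraries. Neighbours read in the library that had not chosen the wide peaks went the same way. Of the 303 wide replicate 1 peaks found in replicate 2, 139 (45.9%, 40.2 to 51.7) had a further, non-overlapping replicate 2 peak within 1 kb, against 35.2% (33.3 to 37.2) of 2341 narrower ones. From replicate 2 to replicate 1 the values were 48.5% (39.8 to 57.3) of 134 and 44.3% (42.4 to 46.2) of 2562, with overlapping intervals.

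The flanks showed the same in both libraries. From 0.2 to 1 kb outside the edge, replicate 1 peaks covered 8.91% of the flanking bases of wide intervals and 5.46% of those of narrower ones. In replicate 2 the values were 6.08% and 3.41%. From 1 to 3 kb they were 6.28% against 2.87% in replicate 1 and 3.75% against 1.71% in replicate 2, and from 3 to 5 kb 4.01% against 2.26% and 2.58% against 1.31%. Coverage beside wide intervals was thus the higher in all 3 zones and both libraries. Wide intervals that lie close together count in each other's flanks, and a wide neighbour covers more bases than a narrow one.

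**Figure D3:**
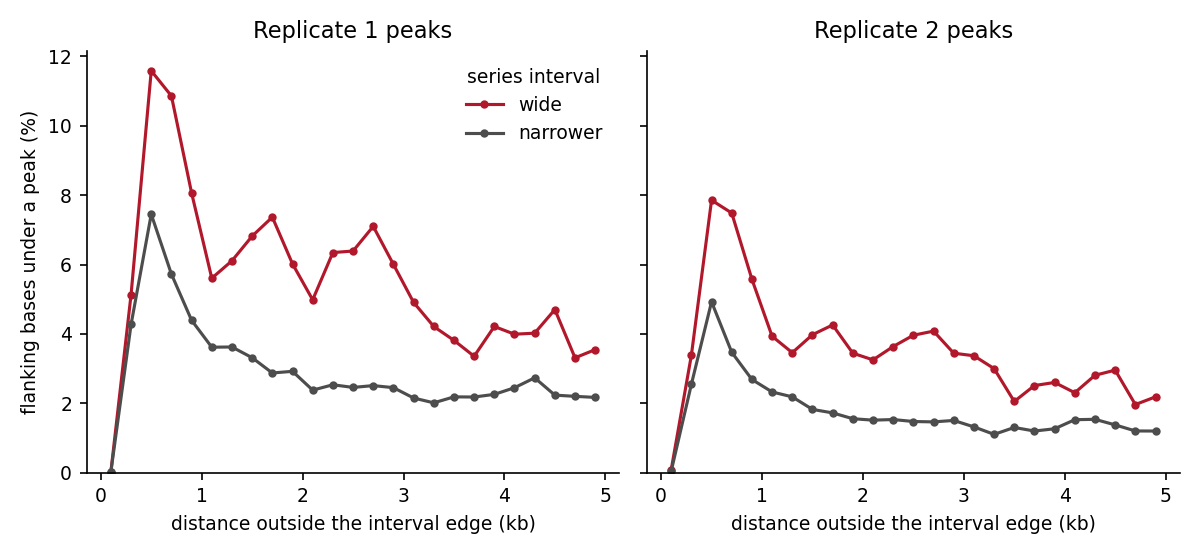
Percentage of flanking bases under a replicate 1 peak (left) or a replicate 2 peak (right) against distance outside the interval edge (kb), as means over 200 bp steps on both sides, for 338 wide (red) and 2296 narrower (grey) intervals. The red line is above the grey line from 0.2 kb to 5 kb in both panels; the low first step follows from the minimum of 200 bp between peaks of a list.

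The share of wide intervals was higher where more series peaks lay nearby. It was 10.4% (8.19 to 12.9) of the 674 intervals with no other series peak within 10 kb, 9.63% of the 737 with 1 and 13.1% (10.9 to 15.6) of the 847 with 2 or 3. It was 21.2% (16.9 to 26.0) of the 335 with 4 to 6 and 36.6% (22.1 to 53.1) of the 41 with 7 or more. The confidence intervals of the first 3 classes overlap, and those of the last 2 lie above that of isolated intervals. They treat members of the same cluster as independent, although such members enter a class together, so the 41 intervals stand for fewer places. For example, the 5 wide intervals on 2L at 12003035 to 12014208 each had 8 other series peaks within 10 kb and all fell in the class of 7 or more. By position in a cluster, 11.4% of intervals without a peak within 1 kb were wide, 14.5% (12.05 to 17.3) of those with one on 1 side and 25.2% (17.3 to 34.6, n = 107) of those with one on both sides.

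**Figure D4:**
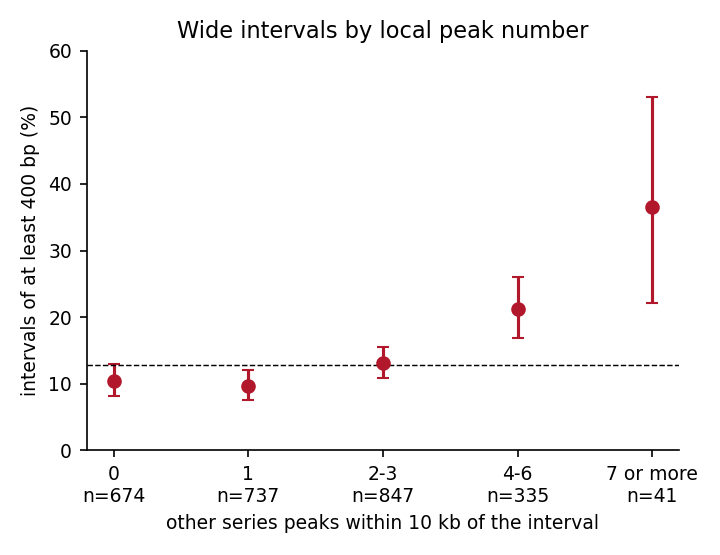
Percentage of series intervals of at least 400 bp (points; bars are 95% exact Clopper-Pearson intervals) by the number of other series peaks within 10 kb, with the number of intervals under each point and the overall 12.8% as a dashed line. The values for 4 to 6 and for 7 or more neighbours, 21.2% and 36.6%, lie above the line with their bars. The bars treat intervals of the same cluster as independent.

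Wide intervals also neighboured other wide intervals. The nearest series peak was itself at least 400 bp wide for 63 of 338 (18.6%, 14.6 to 23.2), against 272 of 2296 narrower intervals (11.8%, 10.5 to 13.2) and 12.7% over all 2634. With the nearest peak within 1 kb the values were 24.2% (17.2 to 32.5) and 14.6% (12.1 to 17.5), and with it farther away 15.05% (10.5 to 20.7) and 10.6% (9.16 to 12.3). In both classes the confidence intervals overlap. Without 3L, an alternative chosen after the data were seen, the nearest peak was wide for 15.6% of wide and 11.4% of narrower intervals. A pair of wide intervals nearest to each other counts for both members. Chained at gaps of up to 10 kb, 110 wide intervals (32.5%) fell into 39 runs of at least 2, and the other 228 stood alone. No matching share for narrower intervals is given, and 74.4% of all 2634 intervals had another series peak of any width within 10 kb. The 32.5% thus does not show by itself that wide intervals gather. The longest run had 6 members on 3R at 12060854 to 12081222, spread over 20.4 kb with 2 narrower series peaks among them. Its members measured 869, 503, 487, 677, 633 and 417 bp and scored 2.97, 4.36, 1.85, 3.30, 2.16 and 2.18 in this order along the arm. Next came 4 runs of 5, of which the tightest spanned 7.06 kb on 3R at 16604013 to 16611069. Clusters of series peaks joined at gaps of up to 1 kb reached 6 peaks and 5248 bp where they held a wide interval, and 5 peaks and 3000 bp where they held none. A cluster of more peaks has more chances to hold a wide one, and a wide one adds its own length. This order is therefore partly built in and is a description only.

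Peaks called in 1 library only were also looked for within 5 kb. At least 1 unshared replicate 2 peak lay there for 25.7% (21.2 to 30.7) of wide and 19.2% (17.6 to 20.9) of narrower intervals. For unshared replicate 1 peaks the values were 52.4% (46.9 to 57.8) and 47.5% (45.5 to 49.6), which overlap, and the order changed with the definition of wide: it was 45.6% against 48.3% when both replicates had to reach 400 bp, and 48.08% against 48.14% with wide set at 600 bp.

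Along the arms, wide intervals were spread with the other peaks, and their number varied from place to place. There were 96 on 2L (13.1% of its intervals, 10.7 to 15.7), 126 on 3L (13.7%, 11.5 to 16.1) and 116 on 3R (11.9%, 9.90 to 14.1), that is 4.58, 5.62 and 4.51 per Mb, and the intervals of the 3 shares overlap. In the replicate lists the arms held 89, 123 and 109 wide peaks in replicate 1 and 39, 60 and 37 in replicate 2, with 3L the highest in each. With each arm cut into 4 equal parts from the telomere side, the wide share was 12.8%, 10.4%, 15.9% (13.1 to 19.0) and 12.5%. The highest share fell in part 3 on 3L and 3R and in part 4 on 2L, with 16.7% (11.6 to 22.8) there. Over 70 bins of 1 Mb the number ran from 0 to 12 with a median of 4, and 2 bins had none. One of these was 3R from 18000001 to 19000000, where 0 of 25 series intervals were wide, with an exact 95% upper limit of 13.7%, above the share over all arms. The fullest was 3R from 12000001 to 13000000, with 12 wide of 67 (17.9%). It was picked as the highest of the 70 bins, and no expected spread was computed.

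In 100 kb windows, 210 of the 587 with a series peak held a wide one (35.8%). The window with the most was 3R from 12000001 to 12100000, with 8 wide of 24 series intervals (33.3%). It was followed by 4 windows with 6 each. These were on 2L from 12000001 (6 of 16), on 3R from 13500001 (6 of 13) and 16600001 (6 of 11), and on 3L from 5100001 (6 of 9, or 66.7%). Wide intervals were the larger part of all series intervals in the last of these and in the window at 16600001 on 3R (54.5%). These windows were picked as the fullest of the 587, so their high counts do not show by themselves that wide intervals gather.

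The median scores of wide intervals were a little above those of narrower ones. Which set held the larger share of the lowest scores depended on the limit. Each score is a value the authors gave to a peak; it comes from the same calls as the width and serves as a description. The median score at wide sites was 3.42 in replicate 1 (quartiles 2.77 and 4.17) and 3.09 in replicate 2 (2.56 and 3.73), against 3.11 (2.50 and 3.88) and 3.04 (2.45 and 3.86) at narrower sites. The quartile ranges overlap almost wholly. Replicate 1 had the higher score at 73.4% of wide sites (68.3 to 78.01) and at 54.01% of narrower ones (51.9 to 56.1). Most wide sites reached 400 bp through replicate 1, where wide peaks scored higher than the rest (medians 3.35 against 2.78). This difference may thus be partly built in. Within the wide set, the series score did not go with width (Spearman's rho -0.0072 across 338 intervals). That is a description over a range of widths cut at 400 bp. The scores of the replicates ranked alike in this set (rho 0.775). The 114 intervals wide in both replicates had a median series score of 3.45, the 189 wide in replicate 1 alone 3.13, the 20 wide in replicate 2 alone 3.37 and the 15 wide in neither 3.67. Among series intervals above the median score of the list, which trims the low scores of both sets, the order was reversed, with medians of 3.82 for wide and 3.95 for narrower intervals.

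**Figure D5:**
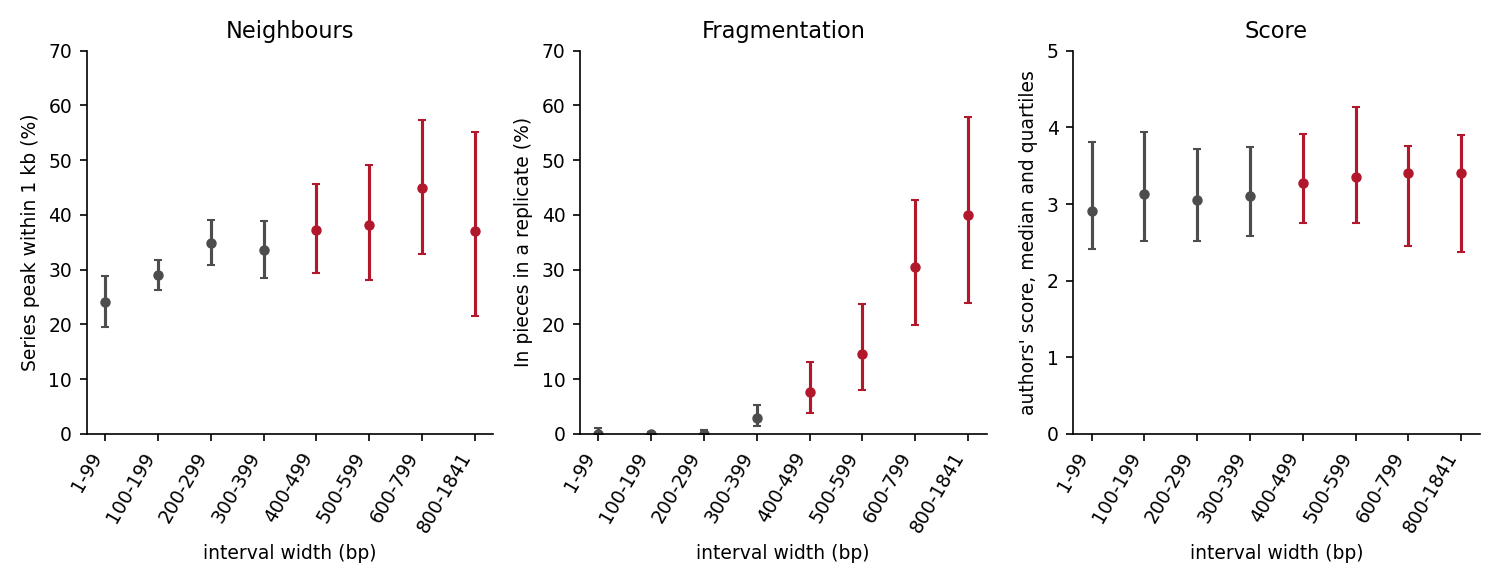
Series intervals within the limits by width (x axis, bp; red from 400 bp), with the percentage that had another series peak within 1 kb (left), the percentage in pieces in a replicate (middle), both with 95% exact intervals, and the median score with quartiles (right). The first goes from 24.0% under 100 bp to 44.9% at 600 to 799 bp and 37.1% above, the second reaches 40.0%, and the median score stays between 2.91 and 3.41.

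Few intervals of any width had high scores: 9 of 338 wide ones (2.66%) scored 6 or more, against 106 of 2296 narrower ones (4.62%), and 1 (0.296%) against 25 (1.09%) scored 8 or more. Of those 25, 7 were under 100 bp long and 15 measured 100 to 199 bp, while 2 of 541 intervals of 200 to 299 bp (0.370%) and 1 of 340 of 300 to 399 bp (0.294%) scored as high, so the low share was not particular to wide intervals. The highest was on 3R at 8889780 to 8890305 (526 bp), with scores of 9.11 in replicate 1 and 8.90 in replicate 2 and widths of 478 and 504 bp. Next was 3R at 2826329 to 2826877, with scores of 8.44 and 7.14 and the nearest series peak 36083 bp away. On 3L at 13029817 to 13030343 the scores were 5.61 and 9.79, and the replicate 2 peak was only 111 bp long. These 3 do not share a setting, since only the last had a series peak within 5 kb. The others of the 5 highest were 3R at 4159457 to 4159900 (7.51 and 6.99) and 3L at 3418329 to 3418898 (7.83 and 6.26), which lay 234 and 318 bp from a narrower peak.

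Wide intervals were frequent among the lowest scores of the 3 arms. Of the 11 series intervals that scored under 1.5, a limit set after the values were seen, 6 were wide (1.78% of 338, against 0.218% of 2296 narrower ones). Of the same 11, 9 lay on 3L, which held 921 of all 2634 intervals within the limits. At a limit of 2 the order turned, with 15 wide (4.44%) and 131 narrower intervals (5.71%) below it. The lowest was 3L at 5133679 to 5134632 (954 bp), with scores of 1.23 in replicate 1 and 1.21 in replicate 2. It lay 251 bp from the 1250 bp interval at 5132178 to 5133427, and both belonged to a run of 5 wide intervals on 3L at 5129020 to 5146420, spread over 17.4 kb, with series scores from 1.22 to 1.85. Low scores and great width were thus found side by side in both libraries.

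A smaller group of the same kind was on 3L at 2722740 to 2729367, with wide intervals of 802 bp (scores 1.26 and 1.28) and 869 bp (1.53 and 1.38). Beside it stood the widest replicate 1 peak within the limits, 2539 bp at 2719852 to 2722390 with a score of 1.25, which overlapped no replicate 2 peak. The remaining one of the 5 lowest was 3L at 15062836 to 15063779, with widths of 796 and 944 bp and scores of 1.34 and 1.18. Of the 18 wide replicate 1 peaks without a replicate 2 overlap, 9 were on 3L, where 123 of all 321 wide replicate 1 peaks lay. Of the same 18, 6 scored under 1.5, 5 of them on 3L. The share of all wide replicate 1 peaks under 1.5 is not given here. The 2 such replicate 2 peaks were on 3R at 24310388 to 24312017 (1630 bp, score 1.34) and on 3L at 5126370 to 5126940 (571 bp, score 1.64), the latter 2079 bp from the run of low scores. Input coverage and copy number were not analysed here, so their part in these low scores was not tested.

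Widths ran on across the limit without a break. With ties kept, the narrowest wide intervals were 5, namely 1 of 401 bp on 2L at 18137738 and 4 of 402 bp on 2L and 3L, with series scores of 2.76 to 4.44. The widest below the limit were 7, namely 1 of 399 bp on 2L at 3806373 and 6 of 398 bp on 2L and 3L, with scores of 2.08 to 3.45. Of the first 5, 3 had a replicate 1 peak of 400 bp or more, and none had such a replicate 2 peak. There were 15 intervals of 400 to 409 bp and 26 of 390 to 399 bp, with median gaps of 2359 and 2194 bp to the nearest series peak and median series scores of 3.33 and 2.78.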

How the data were processed

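Per the file headers and source fields, peaks were called with PeakSeq on FlyBase release 5. Aligner, thresholds and the role of the input were each not given in the sources used here. Each deposited score is the authors' own value; what it measures and is relative to is not given. No read counts stand behind it, so depth is unknown. The series list holds joint extents of overlapping replicate peaks. Where each replicate has 1 peak, its score averages theirs. Where a replicate is split, this does not always hold. On 2L at 18839045 the series score is 2.13, below the replicate means of 2.21 and 2.16.

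Overlap meant at least 1 bp. Gaps run from edge to edge. Shares carry 95% exact Clopper-Pearson intervals, which cover counting error only. Overlaps and gaps were computed with Python 3.11.15, numpy 2.4.6, pandas 2.3.3 and scipy 1.17.1, and were tested on simulated lists. The intervals and measures were chosen with earlier results of these data known. Named intervals are the 12 widest, the 5 highest and 5 lowest scores, the 5 in most pieces, the longest run, the fullest 100 kb window and the 3 on each side of 400 bp; others were chosen after their values were seen. A planned check of sequence composition was not run, since no genome of that release was used.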

Additional observations from a re-analysis of the deposited data

How the results depend on the processing

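Directions between wide and narrower intervals held under the alternatives except in 3 cases. The score order turned among series peaks above the median score (3.82), and unshared replicate 1 peaks within 5 kb turned at 600 bp (48.08%) and with 400 bp required in each replicate (45.6%). The share of wide peaks, 12.8%, is set by its definition: 25.7% at 300 bp, 3.95% at 600 bp, 4.33% with 400 bp in each replicate, 15.2% above the median score and 4.05% to 6.66% in single replicates. Likewise 16.8%, 53.8% and 41.0% of wide intervals reached 400 bp in both replicates at 300 bp, 600 bp and above the median score. Intervals in pieces were 10.2% at 300 bp, 33.7% at 600 bp, 3.51% with 400 bp in each replicate, against 2.58% of the rest, and 22.6% without 3L, an alternative chosen after seeing the data. A neighbour within 1 kb was found for 29.8% above the median score, against 16.6% of narrower intervals. From midpoint to midpoint it was 26.9%, where the difference from narrower intervals all but vanished. In replicates 2 and 1 alone it was 49.3% and 54.5%, against 37.0% and 42.2% of narrower peaks. Within 5 kb, with the narrower value in brackets, it was 72.8% (58.9%) with 400 bp in each replicate and 51.6% (36.6%) above the median score. It was 48.7% (40.2%) with peaks within 1 kb merged. In replicates 2 and 1 alone it was 80.1% (65.8%) and 80.7% (73.2%). The nearest peak was wide for 32.2% (narrower 23.9%) at 300 bp, 9.62% (3.99%) at 600 bp and 23.9% (16.1%) above the median score. In replicates 2 and 1 alone it was wide for 11.8% (4.22%) and 15.3% (6.29%). Median scores in single replicates were 3.11 and 3.35. With 50% reciprocal overlap, 54.2% and 86.03% of wide replicate 1 and 2 peaks were found again. The cause of the reversals was not tested. No paired analysis was possible because ChIP has no second group of matched libraries. Unknown depth limits what the shorter peaks of replicate 2 can show.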

Other observations

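Outside the limits used above, intervals of at least 400 bp made up 107 of 867 series intervals on 2R (12.3%, 95% exact interval 10.2 to 14.7), 91 of 766 on the X (11.9%, 9.67 to 14.4) and 4 of 40 on chromosome 4 (2.79 to 23.7). On the heterochromatin and unplaced scaffolds they were 4 of 28 (14.3%, 4.03 to 32.7). On 2L, 3L and 3R beyond the limits they were 24 of 142 (16.9%, 11.1 to 24.1). Each of these intervals includes the 12.7% of the whole series list.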
